A study of Mus musculus with 12 samples.

Results

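The 39 genes described here encode the machinery of fatty acid oxidation and ketogenesis in the liver, together with regulators and targets of the nuclear receptor PPARA. They were chosen by symbol from a list of the pathway, with earlier results of these data known. The shares of members set against all genes below are therefore not independent of the data. Genes were matched by mouse Ensembl identifier on the GRCm38 build. All 39 had values, among 22381 genes with values in the series. All 39 also passed the filter on low values, a value of at least 3.32 (log2 of 10) in at least 3 libraries, which left 12637 genes to test. RNA from whole liver of female C57BL/6 mice, which are inbred, was sequenced in 12 libraries that fall into 4 groups of 3. Curcumin livers came from mice on a high-fat, high-sugar (HFHS) diet of 14 weeks that had intravenous liposomes with the plant polyphenol curcumin in weeks 12 and 13. Calcitriol livers came from mice with the same diet and schedule whose liposomes held calcitriol, the active vitamin D hormone. HFHS livers came from mice on the diet without an injection named in their labels. CNT livers carry the identical diet text in their labels, and nothing given here states what separates them from HFHS livers. Tissue was collected 2 weeks past the first dose. Empty liposomes were not analysed here, so the drugs cannot be told apart from their carrier and the injections. The labels do not say that libraries of a group are separate animals, and the p-values below measure the spread between these samples.

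PPARA is a receptor for fatty acids and their derivatives that pairs with RXR on DNA and switches on genes for fat burning, above all in fasting and when fat reaches the liver in excess. Long-chain fatty acids are activated to acyl-CoA, carried into mitochondria on carnitine and shortened step by step, and the acetyl-CoA formed can leave the liver as ketone bodies. Very long chains are shortened in peroxisomes, and the microsomal CYP4A enzymes oxidize the far end of the chain. The CYP4A genes, the acyl-CoA thioesterases and Vnn1 are among the classic PPARA-responsive genes of rodent liver.

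Values were deposited as log2 levels without counts, which leaves library depth unknown, and the transformation behind them is not named. Hepatocyte markers were the highest of the 8 marker lists in every library. Their log2 summed level over 7 matched genes was 20.70 to 21.02 in curcumin livers, 20.15 to 20.74 in calcitriol livers, 20.51 to 20.81 in HFHS livers and 20.73 to 20.99 in CNT livers. HFHS replicates 1 and 3 stood apart from HFHS replicate 2, with Col1a1, a collagen gene of fibroblasts and stellate cells, at 10.13 and 9.78 against 7.33. HFHS replicate 3 had the adipocyte gene Cfd at 9.18, against at most 4.32 in the other 11 libraries. In whole tissue, fewer cells of a type and less RNA per cell cannot be told apart.

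Of the genes that passed, Pdk4, Acot2, Cyp4a14 and Vnn1, which lie outside the mitochondrial and peroxisomal spirals, had the highest rises over CNT livers in curcumin and calcitriol livers. Against CNT livers 7 genes rose in HFHS livers, 11 in curcumin livers and 5 in calcitriol livers. Of all genes tested 6.55%, 1.6% and 1.77% rose in the same order, so the counts have different backgrounds. With all 12 libraries as deposited, genes of mitochondrial and peroxisomal oxidation steps, 4 in all, passed in curcumin livers only. All 4 calls were lost when any 1 curcumin library, CNT replicate 1 or CNT replicate 2 was left out. After quantile normalization Cpt1a, a gene of mitochondrial steps, passed in HFHS livers against CNT livers. Some genes that rose in HFHS livers and were not counted in the oxidation steps also have mitochondrial products, such as Bdh1 and Acot2. Acot2 rose in curcumin and calcitriol livers too. The median within-group SD of the 39 genes was 0.098 in curcumin livers, 0.173 in calcitriol livers, 0.219 in HFHS livers and 0.154 in CNT livers. Over all genes tested it was 0.091, 0.083, 0.124 and 0.114 in the same order. Curcumin replicate 2 held the highest of the 12 values for 25 of the 39 genes. The lowest value was in CNT replicate 3 for 15 genes, in calcitriol replicate 3 for 10 and in HFHS replicate 3 for 7. Such highest and lowest libraries were not counted over all genes.

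**Figure D1:**
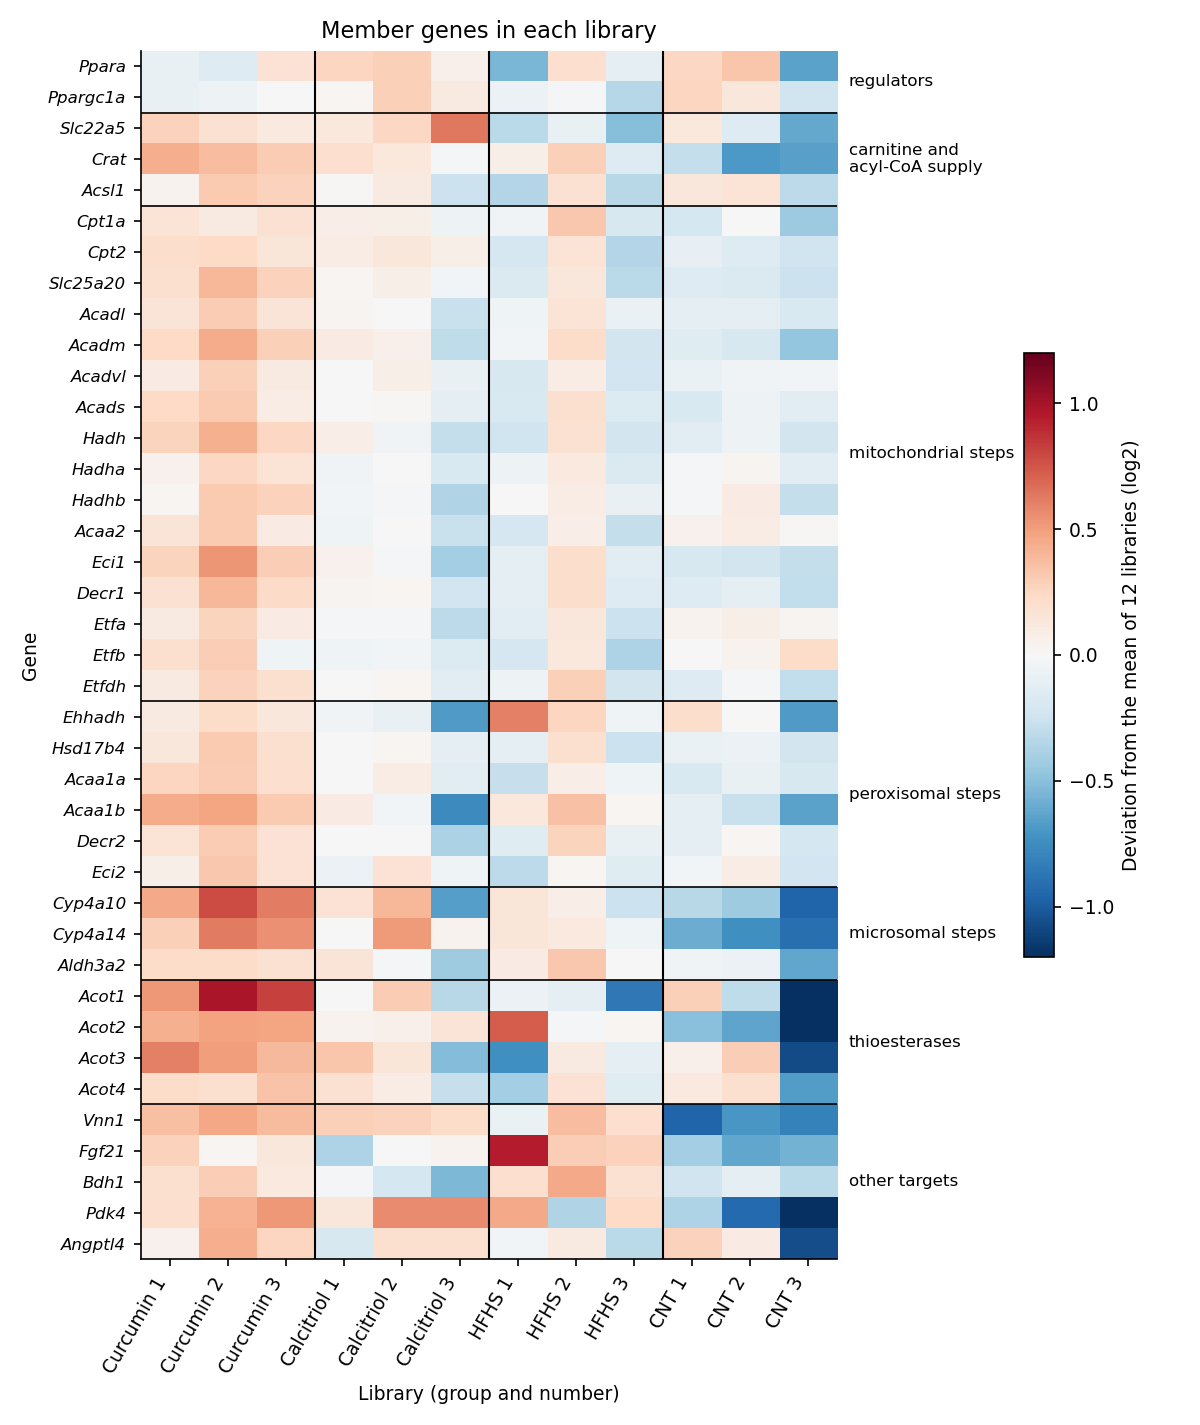
Deviation of each of the 39 genes (rows, grouped by role) from its own mean over 12 libraries, on the log2 scale, for each library (columns, 3 per group); red is above and blue below the mean. Curcumin replicate 2 is the highest library for 25 genes and CNT replicate 3 the lowest for 15, and all 9 libraries of the other groups lie above the 3 CNT libraries in Crat, Cyp4a14, Acot2, Vnn1, Fgf21 and Pdk4, in the last 2 by a small margin. How many of all genes show these patterns was not counted.

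HFHS livers were compared with CNT livers to see how livers without an injection named in their labels differed. In HFHS livers 7 of the 39 genes rose and none fell (limma, adjusted p under 0.05), where 11.9% of all genes tested passed, 6.55% as higher and 5.36% as lower. The 7 were Vnn1, Fgf21, Pdk4, Bdh1, Crat, Cyp4a14 and Acot2, with rises of 0.50 to 1.04 on the log2 scale. None of the 16 genes of mitochondrial oxidation steps and none of the 6 of peroxisomal steps passed. Over the 39 genes the median difference was 0.08, against -0.01 over all genes tested. Without CNT replicate 2 only Fgf21 and Vnn1 of the 7 passed, without HFHS replicate 1 Acot2, Cyp4a14, Fgf21 and Vnn1, and without HFHS replicates 1 and 3 together Crat and Vnn1. Of all genes 1.07%, 1.71% and 0.538% passed in those fits. The count of members was 0 when the model held only these 2 groups, with 0.103% of all genes, and 20 after quantile normalization, with 8.84% of all genes and 7 of the 20 shared. In the same comparison 4 of 8 markers of stellate cells and fibroblasts and 2 of 8 macrophage markers rose, and 1 of 7 hepatocyte markers fell. Their part in these differences was not tested.

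Curcumin livers were compared with CNT livers, a reference they share with the other comparisons against CNT. In curcumin livers 11 of the 39 genes rose and none fell, where 3.51% of all genes passed, 1.6% as higher and 1.91% as lower. Vnn1, Cyp4a14, Crat, Acot2, Pdk4 and Fgf21 were joined by Cyp4a10, by the mitochondrial genes Slc25a20, Acadm and Eci1, and by the peroxisomal thiolase gene Acaa1a. The median difference was 0.40 over the 39 genes and 0.00 over all genes tested. The 3 curcumin libraries lay above the 3 CNT libraries, without overlap, for 30 of the 39 genes, against 12.9% of all genes. Of the 11 calls, Crat, Cyp4a14 and Vnn1 remained without curcumin replicate 2, these 3 and Acot2 without curcumin replicate 1, curcumin replicate 3 or CNT replicate 2, and these 4 and Pdk4 without CNT replicate 1. The count of members was 20 after quantile normalization, with 3.21% of all genes, and 18 with only these 2 groups in the model, with 5.1%. In the same comparison 1 of 4 erythroid markers rose, and no marker of the other 7 lists passed. Its part in these differences was not tested.

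Calcitriol livers were set against the same CNT livers. In calcitriol livers 5 of the 39 genes rose and none fell, where 4.04% of all genes passed, 1.77% as higher and 2.27% as lower. The 5 were Vnn1, Cyp4a14, Crat, Pdk4 and Acot2, the genes that also passed in both other comparisons with CNT. The median difference was 0.12 over the 39 genes and 0.00 over all genes. Cyp4a14 and Vnn1 remained past the threshold without CNT replicate 2, calcitriol replicate 2 or calcitriol replicate 3, and these 2 and Pdk4 without calcitriol replicate 1. Without the filter on low values 3 of the 5 passed. Calcitriol and CNT libraries were taken as pairs by number from correlations in these same data, as the labels state no pairing. With the number as a block Pdk4 passed over all 12 libraries (limma adjusted p = 0.0378) and not in a model of these 2 groups alone (adjusted p = 0.0910). In the same comparison 3 of 8 macrophage markers and 1 of 4 erythroid markers rose, and 1 of 7 hepatocyte markers fell. The log2 summed level of macrophage markers was 13.35 to 13.63 in calcitriol livers and 12.73 to 13.08 in CNT livers. The part of these markers in the differences was not tested.

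**Figure D2:**
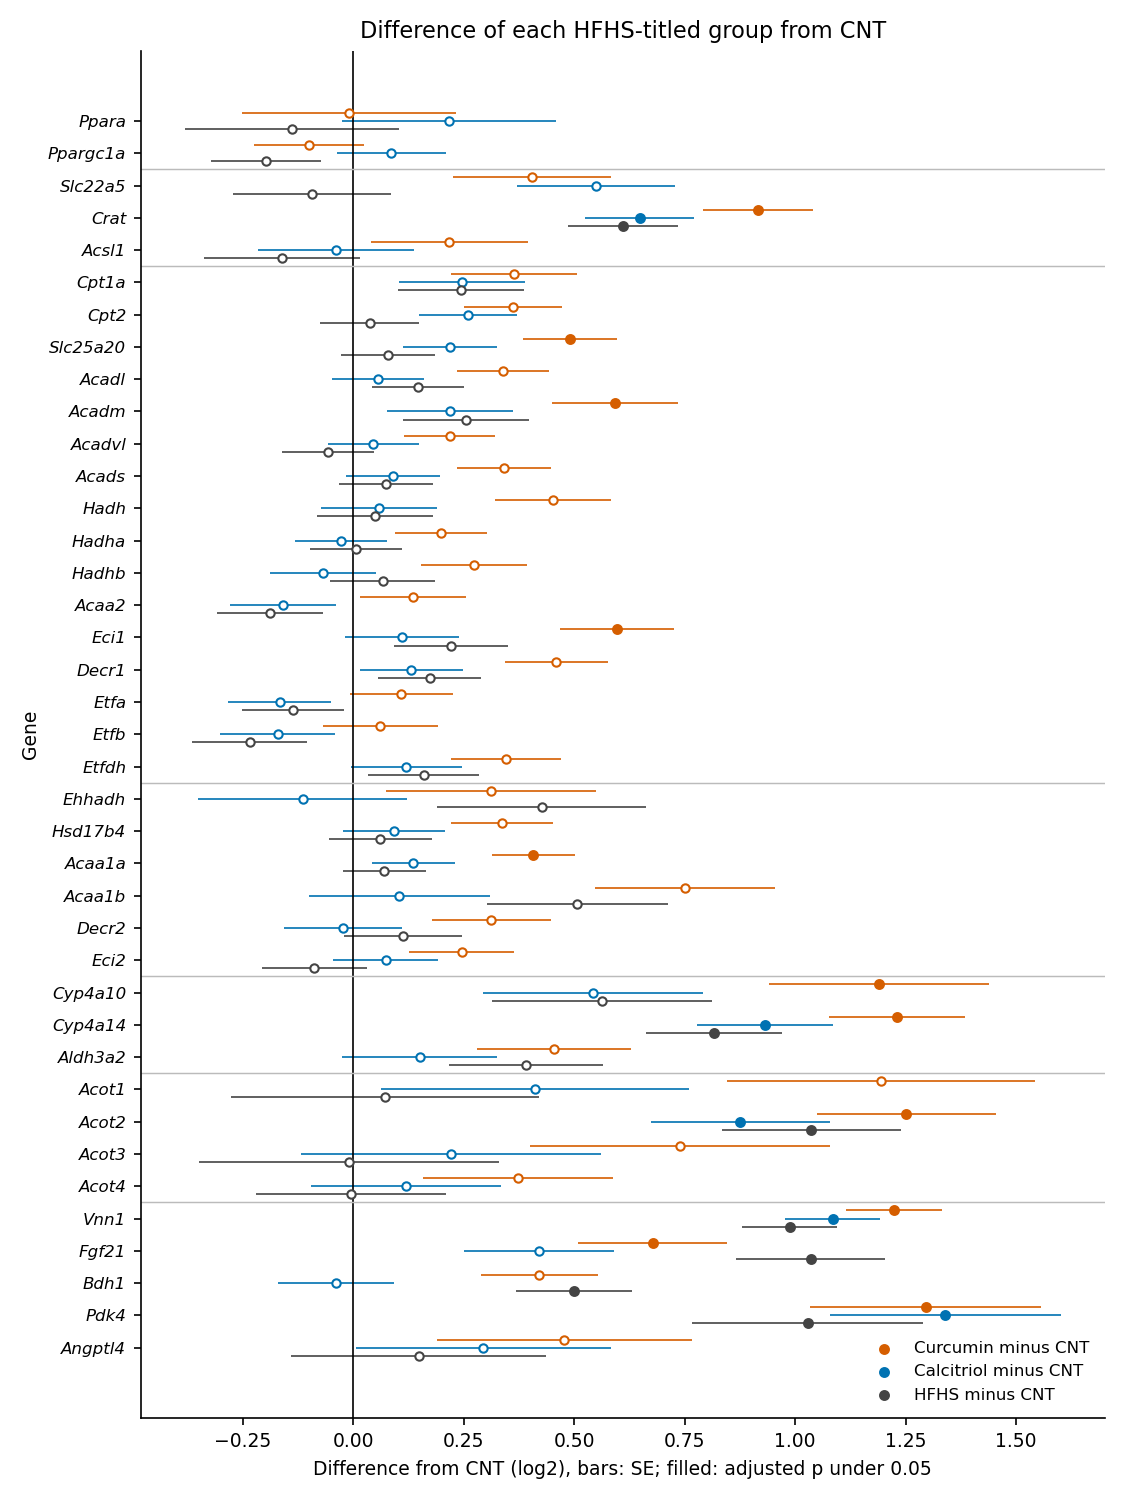
Difference of curcumin, calcitriol and HFHS livers from CNT livers (log2, horizontal axis) for each of the 39 genes, as points with the limma standard error; filled points passed the adjusted p threshold of 0.05. Filled points number 11 for curcumin, 5 for calcitriol and 7 for HFHS, and the 3 sets of differences share the CNT libraries. Of all genes tested 3.51%, 4.04% and 11.9% passed in the same order.

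Against HFHS livers, whose labels name the diet and no injection, no member passed in curcumin livers. By limma 0 of 39 genes had an adjusted p under 0.05, where 0.301% of all genes did. At an unadjusted p under 0.05 there were 20 members, all of them higher in curcumin livers, against 24.7% of all genes (11.5% as higher). The difference was above 0 for 36 of the 39 genes, against 49.2% of all genes, and for 31 after quantile normalization. The lowest adjusted p values were those of Slc25a20, the carnitine carrier of the inner mitochondrial membrane (0.41 ± 0.11 SE, adjusted p = 0.0724), Acaa1a (0.34 ± 0.09, adjusted p = 0.0825), the thioesterase Acot1 (1.12 ± 0.35, adjusted p = 0.107), Hadh (0.40 ± 0.13, adjusted p = 0.110) and Eci1 (0.38 ± 0.13, adjusted p = 0.120). The 3 curcumin libraries lay above the 3 HFHS libraries for 15 genes, against 11.9% of all genes, and below them for Fgf21, against 11.6%. The labels state no pairing, and curcumin and HFHS libraries were taken as pairs by number from correlations in these same data. With the number as a block over all 12 libraries, Slc25a20 passed (adjusted p = 0.0474), and 1.92% of all genes did. With the block and only these 2 groups, 0 members and 0.0633% of all genes passed, and Slc25a20 had an adjusted p of 0.0969. Without HFHS replicate 2, 19 members passed, and 25.4% of all genes did. Without HFHS replicates 1 and 3 the difference in Slc25a20 was as low as 0.16 (adjusted p = 0.958). No cell type marker passed in this comparison. The median difference of the markers was 0.22 over 7 hepatocyte genes, -0.74 over 8 genes of stellate cells and fibroblasts, -0.61 over 2 adipocyte genes and 0.63 over 4 erythroid genes, against 0.27 over the 39 members. The log2 summed level of stellate and fibroblast markers was 12.49 to 12.56 in curcumin livers and 12.35 to 13.53 in HFHS livers. The part of these markers in the differences was not tested.

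No member passed in calcitriol livers against HFHS livers either. By limma 0 of 39 had an adjusted p under 0.05, where 2.21% of all genes did, and 5 had an unadjusted p under 0.05, against 21.3% of all genes (9.72% as higher). The 5 were not all on one side: Bdh1 (-0.54 ± 0.13 SE, adjusted p = 0.0560), Fgf21 (-0.62 ± 0.17, adjusted p = 0.0772) and Ehhadh (-0.54 ± 0.24, adjusted p = 0.215) were lower in calcitriol livers, and Slc22a5 (0.64 ± 0.18, adjusted p = 0.0799) and Ppargc1a (0.28 ± 0.12, adjusted p = 0.210) were higher. The median difference over the 39 genes was 0.03, and -0.09 after quantile normalization. Without HFHS replicate 2 there were 5 members past the threshold, with 17.4% of all genes, and without calcitriol replicate 1 there was 1, Bdh1 (adjusted p = 0.0497), with 0.934% of all genes. In the same comparison 1 of 5 endothelial and 1 of 4 erythroid markers rose, and 1 of 8 markers of stellate cells and fibroblasts fell.

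Between the 2 liposomes, in curcumin livers against calcitriol livers, limma gave an adjusted p under 0.05 for 0 of the 39 and 0 of all 12637 genes (0%). At an unadjusted p under 0.05 there were 17 members, all higher in curcumin livers, against 14.8% of all genes (7.49% as higher). The difference was above 0 for 35 of 39, against 50.9% of all genes. The curcumin libraries lay above the calcitriol libraries for 29 genes, against 14.9% of all genes, and below them for Ppargc1a, against 13.8%. The lowest adjusted p values belonged to Eci1 (0.49 ± 0.13 SE, adjusted p = 0.200), Bdh1 (0.46 ± 0.13, adjusted p = 0.213), Acaa1b (0.65 ± 0.20, adjusted p = 0.243), Hadh (0.39 ± 0.13, adjusted p = 0.250) and Acaa1a (0.27 ± 0.09, adjusted p = 0.259). Calcitriol replicate 3, the lowest library of its group in all 5, also had the lowest hepatocyte marker sum of all libraries, at 20.15. Alb, at 19.65 the highest of these markers in that library, weighs most in the sum. The markers did not move together there. Alb and Apoa1 (15.95) were the lowest of all libraries and Fgb (16.76) the highest. Apob, Ttr, Hnf4a and Ass1 were at neither end. The part of the marker level in the difference was not tested.

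Neither of the 2 regulators passed in any comparison. Ppara stood at 11.38, 11.31 and 11.64 in curcumin livers, 11.72, 11.75 and 11.53 in calcitriol livers, 10.92, 11.67 and 11.35 in HFHS livers and 11.72, 11.80 and 10.83 in CNT livers (log2, replicates 1 to 3). The lowest values were single libraries, HFHS replicate 1 and CNT replicate 3, and all groups overlapped. The difference between HFHS and CNT livers was -0.14 ± 0.24 (SE, limma adjusted p = 0.722), and its sign turned to 0.06 without HFHS replicate 1 or after quantile normalization, to 0.04 without CNT replicate 2 and to 0.22 without HFHS replicates 1 and 3. Ppargc1a, which encodes a coactivator of PPARA and of mitochondrial genes, stood at 8.06, 8.09 and 8.15 in curcumin livers, 8.17, 8.43 and 8.26 in calcitriol livers, 8.08, 8.13 and 7.80 in HFHS livers and 8.41, 8.28 and 7.91 in CNT livers. The calcitriol libraries lay above the curcumin and HFHS libraries, and CNT overlapped all. HFHS minus CNT was -0.20 ± 0.12 (adjusted p = 0.289).

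Vnn1 encodes vanin-1, a pantetheinase that splits a breakdown product of coenzyme A (ENSMUSG00000037440, GRCm38 chromosome 10, 23894688 to 23905343, plus strand). It stood at 11.69, 11.78 and 11.70 in curcumin livers, 11.61, 11.60 and 11.54 in calcitriol livers, 11.24, 11.69 and 11.52 in HFHS livers and 10.36, 10.62 and 10.52 in CNT livers. The 9 libraries of the other groups lay above the 3 of CNT with a gap. The mean was 11.72 ± 0.05 in curcumin livers, 11.58 ± 0.04 in calcitriol livers, 11.49 ± 0.23 in HFHS livers and 10.50 ± 0.13 in CNT livers (SD, n = 3 each). Against CNT the rise was 1.22 ± 0.11 in curcumin livers (2.34-fold, limma adjusted p = 0.000238), 1.08 ± 0.11 in calcitriol livers (2.12-fold, adjusted p = 0.000521) and 0.99 ± 0.11 in HFHS livers (1.98-fold, adjusted p = 0.00113). Vnn1 passed under all 13 alternatives in curcumin livers, all 14 in calcitriol livers and 13 of 14 in HFHS livers, the exception being the model of HFHS and CNT alone (adjusted p = 0.0615).

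Fgf21 encodes a hormone that the liver releases in fasting and metabolic stress (ENSMUSG00000030827, chromosome 7, 45613886 to 45615490, minus strand). It stood at 6.18, 5.93 and 6.04 in curcumin livers, 5.53, 5.90 and 5.94 in calcitriol livers, 6.84, 6.20 and 6.18 in HFHS livers and 5.50, 5.28 and 5.34 in CNT livers. The HFHS libraries were the highest, led by replicate 1 and with replicate 3 barely above curcumin replicate 1, and the CNT libraries were the lowest. HFHS livers rose by 1.04 ± 0.17 over CNT livers (adjusted p = 0.00951) and curcumin livers by 0.68 ± 0.17 (adjusted p = 0.0489). The curcumin call held in 1 of 12 alternatives, with adjusted p up to 0.174 without curcumin replicate 1. In calcitriol livers the difference from CNT was 0.42 ± 0.17 (adjusted p = 0.162).

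Pdk4 encodes a kinase that turns off pyruvate dehydrogenase and so spares glucose when fat is burned (ENSMUSG00000019577, chromosome 6, 5483351 to 5496309, minus strand). It stood at 8.61, 8.83 and 8.93 in curcumin livers, 8.54, 8.98 and 8.98 in calcitriol livers, 8.87, 8.05 and 8.65 in HFHS livers and 8.04, 7.48 and 6.97 in CNT livers. The CNT libraries were the lowest 3 of the 12, and HFHS replicate 2 lay only just above the highest of them. The rise over CNT was 1.30 ± 0.26 in curcumin livers (adjusted p = 0.0254), 1.34 ± 0.26 in calcitriol livers (adjusted p = 0.0229) and 1.03 ± 0.26 in HFHS livers (adjusted p = 0.0330). Without HFHS replicates 1 and 3 the HFHS difference was 0.56 (adjusted p = 0.622).

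Bdh1 encodes the mitochondrial dehydrogenase of the last step of ketogenesis, from acetoacetate to beta-hydroxybutyrate (ENSMUSG00000046598, chromosome 16, 31422280 to 31458901, plus strand). It stood at 12.75, 12.86 and 12.68 in curcumin livers, 12.53, 12.35 and 12.02 in calcitriol livers, 12.76, 13.01 and 12.75 in HFHS livers and 12.32, 12.46 and 12.24 in CNT livers. HFHS and curcumin libraries were all above those of CNT, and calcitriol libraries overlapped with CNT. The rise in HFHS livers over CNT livers was 0.50 ± 0.13 (adjusted p = 0.0337), and the call was lost when any 1 of the 6 libraries other than HFHS replicate 2 was left out. The differences from CNT were 0.42 ± 0.13 in curcumin livers (adjusted p = 0.106) and -0.04 ± 0.13 in calcitriol livers (adjusted p = 0.889). Angptl4, whose product blocks lipoprotein lipase, stood at 11.15, 11.54 and 11.36 in curcumin livers, 10.91, 11.30 and 11.29 in calcitriol livers, 11.06, 11.21 and 10.78 in HFHS livers and 11.38, 11.20 and 10.03 in CNT livers. CNT replicate 3 was the only library far from the rest. HFHS minus CNT was 0.15 ± 0.29 (adjusted p = 0.753), and -0.27 without CNT replicate 3.

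**Figure D3:**
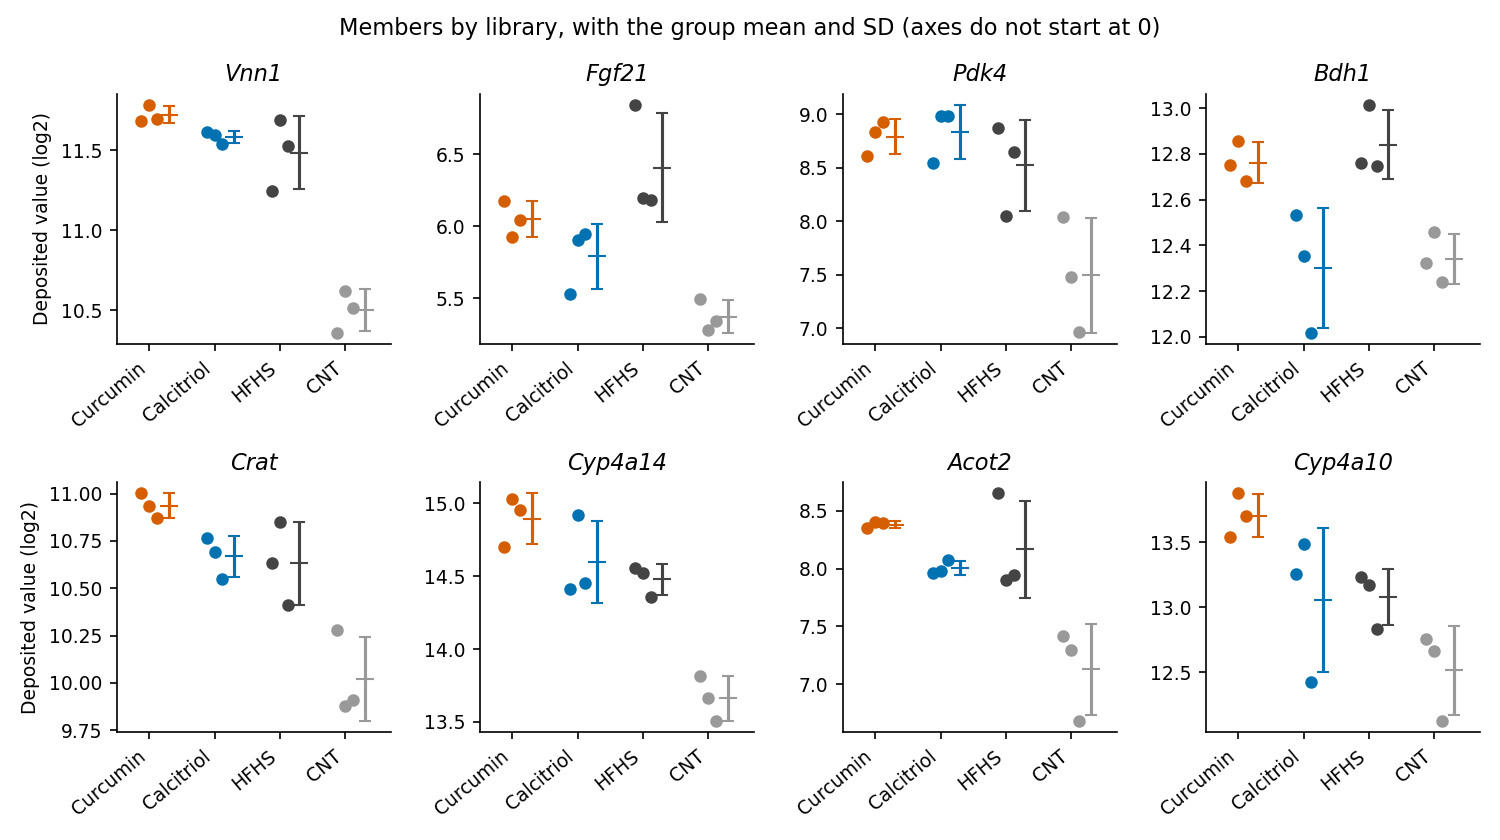
Deposited log2 values of 8 genes in each library (points) with the group mean and SD (bars, n = 3), for curcumin, calcitriol, HFHS and CNT livers; axes do not start at 0. The CNT libraries are the lowest 3 in Vnn1, Fgf21, Pdk4, Crat, Cyp4a14 and Acot2, and in Bdh1 they overlap with calcitriol.

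The promoters of genes that rose together in HFHS livers are shown because PPARA and RXR bind direct repeats of half-sites of the form AGGNCA. RefSeq promoter windows on GRCm38.p6, 250 bases before to 50 after a start site, were at hand for 4 of the 7 genes, and the start-site windows of Vnn1, Cyp4a14 and Crat were not used here. Each line reads 5′ to 3′ on the gene's strand, with AGGNCA on either strand in capitals. The windows are chr6:5496229-5496528 (minus strand) for Pdk4, chr7:45615441-45615740 (minus strand) for Fgf21, chr12:83987611-83987910 (plus strand) for Acot2 and chr16:31422047-31422346 (plus strand) for Bdh1.
Pdk4: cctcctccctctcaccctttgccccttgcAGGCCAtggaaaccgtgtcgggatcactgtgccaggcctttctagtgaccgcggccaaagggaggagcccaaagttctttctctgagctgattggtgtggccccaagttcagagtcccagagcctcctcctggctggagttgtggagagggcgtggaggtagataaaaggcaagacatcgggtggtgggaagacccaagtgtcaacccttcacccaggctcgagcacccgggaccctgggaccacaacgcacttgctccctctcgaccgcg
Fgf21: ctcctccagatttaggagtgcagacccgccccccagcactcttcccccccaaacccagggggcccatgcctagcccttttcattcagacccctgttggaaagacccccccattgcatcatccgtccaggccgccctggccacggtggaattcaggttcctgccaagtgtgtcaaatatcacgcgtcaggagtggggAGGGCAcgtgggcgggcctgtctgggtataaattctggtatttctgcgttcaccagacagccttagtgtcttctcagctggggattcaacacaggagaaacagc
Acot2: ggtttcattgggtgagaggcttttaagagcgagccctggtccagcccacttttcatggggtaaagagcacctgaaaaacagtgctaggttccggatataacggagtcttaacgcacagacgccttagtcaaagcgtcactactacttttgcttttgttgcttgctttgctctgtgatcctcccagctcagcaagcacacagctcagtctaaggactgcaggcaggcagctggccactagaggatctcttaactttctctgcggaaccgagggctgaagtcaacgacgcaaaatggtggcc
Bdh1: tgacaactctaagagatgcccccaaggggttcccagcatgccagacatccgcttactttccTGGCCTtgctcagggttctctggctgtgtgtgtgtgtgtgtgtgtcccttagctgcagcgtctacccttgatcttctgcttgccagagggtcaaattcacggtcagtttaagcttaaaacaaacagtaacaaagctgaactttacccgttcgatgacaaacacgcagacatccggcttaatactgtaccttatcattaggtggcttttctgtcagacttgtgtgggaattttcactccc
Pdk4 held 1 half-site, AGGCCA from base -221 relative to the start, and Fgf21 1, AGGGCA from base -54. Bdh1 has 2 windows: the one shown held AGGCCA on the opposite strand from base -189, and the other, chr16:31428503-31428802, held none. The Acot2 window held none. Across the 31 members with a window, 24 held AGGNCA in at least 1 window, 25 of 34 windows in all, against 57.2% of 32851 promoter windows. The full direct repeat, AGGNCA and AGGNCA with 1 base of any kind between them, was searched on both strands and was found in 0 of the 34 windows, against 0.381% of all windows. The half-site lies inside the repeat, so the searches overlap, and a window without these letters says nothing of sites elsewhere.

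Fatty acid supply was led by Crat, the carnitine acetyltransferase that buffers acetyl-CoA (ENSMUSG00000026853, chromosome 2, 30400471 to 30415813, minus strand). It stood at 11.00, 10.94 and 10.87 in curcumin livers, 10.77, 10.69 and 10.55 in calcitriol livers, 10.63, 10.85 and 10.41 in HFHS livers and 10.28, 9.88 and 9.91 in CNT livers. The curcumin libraries were the highest 3 and the CNT libraries the lowest 3. Against CNT Crat rose by 0.92 ± 0.12 in curcumin livers (adjusted p = 0.00314), 0.65 ± 0.12 in calcitriol livers (adjusted p = 0.0194) and 0.61 ± 0.12 in HFHS livers (adjusted p = 0.0162). Slc22a5, the carnitine importer of the plasma membrane, stood at 9.62, 9.53 and 9.47 in curcumin livers, 9.48, 9.60 and 9.98 in calcitriol livers, 9.02, 9.26 and 8.84 in HFHS livers and 9.48, 9.19 and 8.73 in CNT livers. Both injected groups lay above HFHS without overlap, and no comparison passed. Of the 50-base windows of its longest coding transcript, 27.1% also occur in another gene, chiefly Slc22a21. Acsl1, which activates long-chain fatty acids, ranged from 13.39 to 14.06 over the 12 libraries and passed in no comparison.

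Entry into mitochondria runs through Cpt1a, Slc25a20 and Cpt2, and 1 of the 3 passed a test. Cpt1a, the rate-controlling carnitine palmitoyltransferase of the outer membrane, stood at 13.66, 13.60 and 13.67 in curcumin livers, 13.58, 13.57 and 13.44 in calcitriol livers, 13.45, 13.82 and 13.30 in HFHS livers and 13.29, 13.50 and 13.05 in CNT livers. HFHS replicate 2 was the highest library and CNT replicate 3 the lowest, and HFHS and CNT overlapped. HFHS minus CNT was 0.24 ± 0.14 (adjusted p = 0.259), and 0.49 (adjusted p = 0.0284) after quantile normalization. Slc25a20 (ENSMUSG00000032602, chromosome 9, 108662088 to 108684641, plus strand) stood at 11.32, 11.52 and 11.40 in curcumin livers, 11.15, 11.19 and 11.09 in calcitriol livers, 10.95, 11.26 and 10.80 in HFHS livers and 10.96, 10.94 and 10.87 in CNT livers. The curcumin libraries were the highest 3 of the 12, and HFHS replicate 2 came next. Curcumin livers rose by 0.49 ± 0.11 over CNT livers (adjusted p = 0.0288). With single libraries of these groups left out in turn, Slc25a20 passed only without CNT replicate 3.

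Within the mitochondrial spiral Acadm and Eci1 passed, both in curcumin livers against CNT livers. Acadm encodes the medium-chain acyl-CoA dehydrogenase (ENSMUSG00000062908, chromosome 3, 153922357 to 153944632, minus strand). It stood at 12.75, 12.96 and 12.80 in curcumin livers, 12.61, 12.58 and 12.21 in calcitriol livers, 12.48, 12.73 and 12.29 in HFHS livers and 12.37, 12.32 and 12.05 in CNT livers. The curcumin libraries were the highest 3, with a rise of 0.59 ± 0.14 over CNT (adjusted p = 0.0432) that no longer passed whichever 1 of the 6 libraries was left out. Eci1 encodes an isomerase for unsaturated chains (ENSMUSG00000024132, chromosome 17, 24426641 to 24439348, plus strand) and stood at 11.25, 11.51 and 11.28 in curcumin livers, 11.03, 10.97 and 10.58 in calcitriol livers, 10.87, 11.19 and 10.85 in HFHS livers and 10.79, 10.77 and 10.69 in CNT livers. Its highest 3 values were again those of the curcumin livers, which rose by 0.60 ± 0.13 over CNT (adjusted p = 0.0281). With 1 of the 6 libraries left out, Eci1 passed only without CNT replicate 3. The other 11 genes of the spiral and of electron transfer, from the dehydrogenases Acadvl, Acadl and Acads to the flavoprotein subunits Etfa and Etfb, did not pass in any comparison. Etfb shares 67.3% of its 50-base windows with Gm45233 and Hadhb, a subunit of the trifunctional protein, 62.4% with other genes, chiefly Gm13910, so their values are uncertain.

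Among the 6 peroxisomal genes Acaa1a passed, in curcumin livers against CNT livers. Acaa1a encodes a thiolase that cuts off acetyl-CoA (ENSMUSG00000036138, chromosome 9, 119339676 to 119350299, plus strand). It stood at 11.34, 11.39 and 11.29 in curcumin livers, 11.08, 11.17 and 10.95 in calcitriol livers, 10.81, 11.16 and 11.03 in HFHS livers and 10.90, 11.00 and 10.89 in CNT livers. The curcumin libraries were the highest 3, by 0.41 ± 0.09 over CNT (adjusted p = 0.0356). When single libraries of these groups were left out in turn, Acaa1a passed only without CNT replicate 3. It shares 35.1% of its windows with other genes, chiefly its neighbour copy Acaa1b, and reads could be split between them. Ehhadh, the bifunctional enzyme of the inducible peroxisomal pathway, stood at 13.00, 13.11 and 13.03 in curcumin livers, 12.85, 12.80 and 12.22 in calcitriol livers, 13.50, 13.15 and 12.85 in HFHS livers and 13.11, 12.89 and 12.22 in CNT livers. Its spread was wide, with HFHS replicate 1 at the top and calcitriol replicate 3 and CNT replicate 3 at the bottom. HFHS minus CNT was 0.43 ± 0.24 (adjusted p = 0.237). Hsd17b4, Acaa1b, Decr2 and Eci2 passed in no comparison.

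The microsomal CYP4A enzymes hydroxylate the far end of fatty acids, and Cyp4a10 and Cyp4a14 spanned 1.75 and 1.52 on the log2 scale over the 12 libraries. Cyp4a14 (ENSMUSG00000028715, chromosome 4, 115486200 to 115496142, minus strand) stood at 14.70, 15.03 and 14.95 in curcumin livers, 14.41, 14.92 and 14.45 in calcitriol livers, 14.55, 14.52 and 14.35 in HFHS livers and 13.81, 13.67 and 13.51 in CNT livers. All 9 libraries of the other groups lay above CNT. The rise over CNT was 1.23 ± 0.15 in curcumin livers (2.35-fold, adjusted p = 0.00214), 0.93 ± 0.15 in calcitriol livers (1.91-fold, adjusted p = 0.0109) and 0.82 ± 0.15 in HFHS livers (1.76-fold, adjusted p = 0.0138). Cyp4a10 (ENSMUSG00000066072, chromosome 4, 115518264 to 115533649, plus strand) stood at 13.54, 13.87 and 13.70 in curcumin livers, 13.26, 13.48 and 12.43 in calcitriol livers, 13.23, 13.17 and 12.83 in HFHS livers and 12.75, 12.66 and 12.12 in CNT livers. The curcumin libraries were the highest 3, and calcitriol replicate 3 lay among the CNT libraries. Curcumin livers rose by 1.19 ± 0.25 over CNT livers (adjusted p = 0.0272), and HFHS minus CNT was 0.56 ± 0.25 (adjusted p = 0.145). The curcumin call of Cyp4a10, with single libraries left out in turn, held only without CNT replicate 3. Cyp4a10 shares 30.5% of its windows with other genes, chiefly Cyp4a32, and Cyp4a14 0.245%. Aldh3a2, which oxidizes the fatty aldehydes that follow, ranged from 12.87 to 13.82 and passed in no comparison.

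The thioesterases release fatty acids from CoA in cytosol (Acot1), mitochondria (Acot2) and peroxisomes (Acot3 and Acot4). Acot2 (ENSMUSG00000021226, chromosome 12, 83987861 to 83993873, plus strand) stood at 8.35, 8.40 and 8.39 in curcumin livers, 7.96, 7.98 and 8.07 in calcitriol livers, 8.65, 7.90 and 7.94 in HFHS livers and 7.42, 7.29 and 6.68 in CNT livers. The CNT libraries were the lowest 3, and HFHS replicate 1 was the highest of all. The rise over CNT was 1.25 ± 0.20 in curcumin livers (adjusted p = 0.00934), 0.88 ± 0.20 in calcitriol livers (adjusted p = 0.0399) and 1.04 ± 0.20 in HFHS livers (adjusted p = 0.0161). Acot1 stood at 9.85, 10.30 and 10.14 in curcumin livers, 9.32, 9.63 and 8.99 in calcitriol livers, 9.25, 9.21 and 8.46 in HFHS livers and 9.60, 9.02 and 8.09 in CNT livers. The curcumin libraries were the highest 3 of the 12, and the other groups overlapped. Acot1, Acot3 and Acot4 passed in no comparison. The 4 genes lie close together on chromosome 12 and share 14.4% to 33.6% of their windows with other genes, which are chiefly Acot2 for Acot1, Acot1 for Acot2, Gm49366 for Acot3 and 4732463B04Rik for Acot4.

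Mitochondrial, peroxisomal and microsomal steps were set side by side as the median of their genes. In HFHS against CNT livers the median difference was 0.07 over the 16 mitochondrial genes, 0.09 over the 6 peroxisomal and 0.56 over the 3 microsomal, with 0, 0 and 1 genes past the test. In curcumin against CNT livers the medians were 0.34, 0.32 and 1.19, with 3, 1 and 2 genes past the test. In calcitriol against CNT livers they were 0.07, 0.08 and 0.54, with 0, 0 and 1. Curcumin against HFHS livers gave 0.28, 0.26 and 0.42, and calcitriol against HFHS livers -0.01, -0.05 and -0.02, with no gene past the test in either. The spread of these class medians between libraries of a group was 0.132 for mitochondrial, 0.136 for peroxisomal and 0.279 for microsomal steps (pooled SD), and the classes were not tested against each other. In each curcumin library the median deviation from the 12-library mean was above 0 in all 3 classes, at 0.17, 0.31 and 0.17 for mitochondrial steps. HFHS replicate 2, at 0.16, stood with them, while HFHS replicates 1 and 3 were at -0.12 and -0.22. Without HFHS replicates 1 and 3 the mitochondrial median of HFHS against CNT was 0.32 and that of curcumin against HFHS 0.05. Without HFHS replicate 2 it was -0.05 for HFHS against CNT, and that of calcitriol against HFHS was 0.12.

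**Figure D4:**
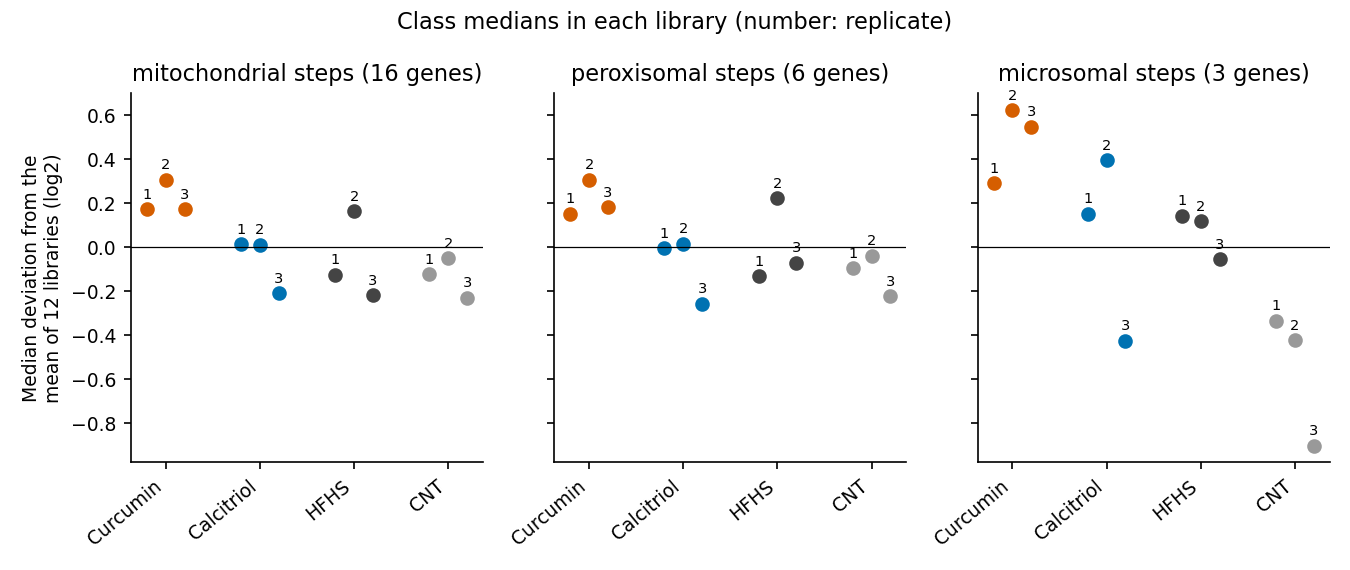
Median deviation from the mean of 12 libraries (log2, vertical axis) over the 16 mitochondrial, 6 peroxisomal and 3 microsomal genes in each library (points, numbered by replicate), for curcumin, calcitriol, HFHS and CNT livers. Curcumin libraries lie above 0 in all 3 panels, HFHS replicate 2 lies above HFHS replicates 1 and 3 in mitochondrial and peroxisomal steps, and the CNT libraries are low in microsomal steps, at -0.33, -0.42 and -0.90.

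Levels between genes were compared per kilobase of the longest coding transcript, as the log2 level. In CNT livers the thiolase Acaa2 was highest at 13.12, followed by Cyp4a14 at 12.34 and Acaa1b at 12.22, and Fgf21 was lowest at 5.44. In curcumin livers Cyp4a14 stood first at 13.57 and Acaa2 next at 13.25, and in HFHS livers the levels were 13.16 for Cyp4a14 and 12.93 for Acaa2. Hadhb stood at 7.55 per kilobase in CNT livers, below the 10.70 of its partner subunit Hadha. Hadhb shares 62.4% of its windows with other genes, against 0.655% for Hadha, so its level and this gap are uncertain. Acaa1b shares 46.2% of its windows with other genes, chiefly Acaa1a, so its place among these levels is uncertain too.

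Of a further 52 genes of the pathway, 50 passed the filter. In HFHS against CNT livers 4 of 50 rose and 3 fell, a share close to the 11.9% of all genes. Ucp2, a mitochondrial carrier of the uncoupling protein family (0.91 ± 0.14 SE, adjusted p = 0.00751), Cyp4a31 (0.95 ± 0.16, adjusted p = 0.0104) and the dehydrogenase Acad12 (0.53 ± 0.12, adjusted p = 0.0233) were among the rises. The falls were Acadsb, for short and branched chains (-0.48 ± 0.11, adjusted p = 0.0225), Mlycd, which removes the malonyl-CoA that blocks Cpt1a (-0.34 ± 0.08, adjusted p = 0.0265), and the deacetylase Sirt1 (-0.33 ± 0.08, adjusted p = 0.0315). Without HFHS replicates 1 and 3 only 1 of the 50 passed. In curcumin against CNT livers 8 rose and 1 fell, where 3.51% of all genes passed, among them Ucp2 (0.79 ± 0.14, adjusted p = 0.0106), Cyp4a31 (0.76 ± 0.16, adjusted p = 0.0262), the ketogenic thiolase Acat1 (0.76 ± 0.17, adjusted p = 0.0311), the peroxisome division gene Pex11a (0.87 ± 0.20, adjusted p = 0.0348) and Scp2 (0.51 ± 0.12, adjusted p = 0.0351). The acyl-CoA synthetase Acsl3 fell by 0.42 on the log2 scale (adjusted p = 0.00942). In calcitriol against CNT livers 3 rose and 2 fell, where 4.04% of all genes passed. Cyp4a31 (0.90 ± 0.16, adjusted p = 0.0151), Ucp2 (0.70 ± 0.14, adjusted p = 0.0198) and Cyp4a32 (0.61 ± 0.12, adjusted p = 0.0232) were higher, and Acsl3 (-0.37 ± 0.07, adjusted p = 0.0194) and Acsl4 (-0.39 ± 0.09, adjusted p = 0.0390) lower. Calcitriol livers differed from HFHS livers in 2 of the 50, where 2.21% of all genes passed, in Cyp4a32 (0.66 ± 0.12, adjusted p = 0.0297) and Acsl4 (-0.47 ± 0.09, adjusted p = 0.0341). No gene of the 50 passed by limma in curcumin against HFHS or curcumin against calcitriol livers, and with the replicate block over all 12 libraries 5 passed in curcumin against HFHS livers. Leaving out 1 library moved these counts to between 2 and 15 for HFHS against CNT, 0 and 7 for curcumin against CNT, 0 and 6 for calcitriol against CNT, 0 and 12 for calcitriol against HFHS and 0 and 25 for curcumin against HFHS, the highest of the HFHS counts each without HFHS replicate 2.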

How the data were processed

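Whole-liver RNA of 12 mouse libraries was measured by sequencing, and each library came as a table of 45792 gene identifiers with log2 values, which the authors made before they deposited them. Per the submitters' processing notes the tools and build were STAR 2.4.0d, DESeq2 1.8.1 and GRCm38, with no role stated for any of them. Identifiers at exactly 0 in all 12 libraries (23411) were dropped, and values ran from -3.63 to 20.7. Symbols and coordinates came from GENCODE M21. The depth is unknown, so no counting interval is given.

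limma 3.58.1 in R 4.3.3 was fitted on 4 group means over all 12 libraries, by robust empirical Bayes with an intensity trend. Two-sided p-values were adjusted by Benjamini-Hochberg over 12637 genes, those at log2 of 10 or more in at least 3 libraries, in each of 6 comparisons. Differences are log2, first group minus second, with the moderated standard error. The model was tested on simulated data. Members in full are those past the threshold in any comparison and Ppara, Ppargc1a, Cpt1a, Ehhadh, Cyp4a10, Fgf21, Pdk4 and Angptl4. Of the 52 other pathway genes, up to 6 with the smallest p are named per comparison. The members and lists were chosen with earlier results of these data known. Samples were grouped by title. Alternatives were the filter, quantile and median scaling, 2-group models, no trend, a replicate block and leaving out libraries. Deviations from the group means of same-numbered libraries correlated at over 0.1 in all 3 pairs of curcumin with HFHS (0.16 to 0.32) and of calcitriol with CNT (0.21 to 0.37), and not in the other 4 group pairs, so numbers were taken as pairs in those 2 comparisons, from the data and not from the labels. Leaving out HFHS replicates 1 and 3 together was planned with an earlier report of these data known, and the alternatives for the other pathway genes, as well as the blocked models of 2 groups, were added after seeing the data. Of the marker lists, 1 of 8 hepatocyte markers was not matched.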

Additional observations from a re-analysis of the deposited data

How the results depend on the processing

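Directions were checked for members past the threshold in a comparison and, where none passed, for the 5 with the smallest p. Ppara, Ppargc1a, Cpt1a, Ehhadh, Cyp4a10, Fgf21, Pdk4 and Angptl4 were also checked in HFHS against CNT. These directions held under the alternatives run, apart from Ppara and Angptl4 in HFHS against CNT. Other pairs of member and comparison were not checked. Ppara, -0.14, was 0.057 after quantile normalization, 0.22 without HFHS replicates 1 and 3, and between -0.45 and 0.057 when 1 library was left out, and Angptl4, 0.15, between -0.27 and 0.40. After quantile normalization the members past the threshold numbered 20 in HFHS against CNT, 20 in curcumin against CNT and 1 in calcitriol against HFHS. The other pathway genes numbered 13 in HFHS against CNT, 1 in curcumin against HFHS and 5 in calcitriol against HFHS. Of all genes 8.84% passed in HFHS against CNT, 3.21% in curcumin against CNT, 1.28% in curcumin against HFHS and 3.38% in calcitriol against HFHS. The 1 member in calcitriol against HFHS was 2.56% of members. With only the 2 groups compared, members numbered 0 in HFHS against CNT, 18 in curcumin against CNT and 1 in curcumin against calcitriol. Other pathway genes numbered 0 in HFHS against CNT, 0 in calcitriol against HFHS, 14 in curcumin against CNT and 1 in curcumin against calcitriol. Of all genes 0.103% passed in HFHS against CNT, 0% in calcitriol against HFHS, 5.1% in curcumin against CNT and 1.69% in curcumin against calcitriol. Without HFHS replicates 1 and 3, members numbered 2 and other pathway genes 1 in HFHS against CNT, and other pathway genes 0 in calcitriol against HFHS. Without a filter 3 members passed in calcitriol against CNT, with 1.47% of all genes. With a mean of at least log2 of 100 there was 1 other pathway gene in curcumin against HFHS, with 1.42% of all genes, while Fgf21 was no longer tested. With HFHS replicates 1 and 3 left out, 1 HFHS library remains and takes its spread from the other 3 groups. The cause of these changes was not tested.

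With 1 library left out, members ranged from 2 to 9 in HFHS against CNT, 3 to 9 in curcumin against CNT, 2 to 5 in calcitriol against CNT, 0 to 19 in curcumin against HFHS and 0 to 5 in calcitriol against HFHS. Other pathway genes ranged from 2 to 15, 0 to 7, 0 to 6, 0 to 25 and 0 to 12 in the same order. The highest counts against HFHS and in HFHS against CNT were without HFHS replicate 2. There 23.1% of members and 29.4% of all genes passed in HFHS against CNT, and 7 of the 9 members were higher, the rest lower. In curcumin against HFHS the shares were 48.7% and 25.4%, and in calcitriol against HFHS 12.8% and 17.4%. At the highest member counts, 7.51% of all genes passed in curcumin against CNT and 1.79% in calcitriol against CNT.

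The median of mitochondrial and of peroxisomal steps was 0.27 and 0.34 in HFHS against CNT and 0.10 and 0.063 in curcumin against HFHS after quantile normalization, and 0.22 for peroxisomal steps in calcitriol against CNT. Without HFHS replicates 1 and 3 the medians were 0.32 and 0.34, 0.050 and 0.042, and -0.23 and -0.31 in HFHS against CNT, curcumin against HFHS and calcitriol against HFHS. With 1 library left out the mitochondrial median ranged from -0.10 to 0.12 in calcitriol against HFHS, and the microsomal median from 0.33 to 0.86 in calcitriol against CNT.

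With a replicate block over all 12 libraries, members numbered 1 in curcumin against HFHS (Slc25a20) and 1 in calcitriol against HFHS (Bdh1), 2.56% of members in each. Of all genes 1.92% and 2.22% passed in those fits. Other pathway genes numbered 5 in curcumin against HFHS, and the other counts stayed within 1.5 times. Fgf21 in curcumin against CNT no longer passed under the block (adjusted p = 0.0599). Numbers were taken as pairs in curcumin against HFHS and calcitriol against CNT from these same data, so the blocked p-values rest on that choice. Libraries of different numbers correlated at up to 0.318. In a blocked model of the 2 groups alone, other pathway genes numbered 11 in calcitriol against CNT. In the other 4 group pairs the libraries share only a number, with same-number correlations of -0.38 to 0.22. Over all groups 22 of 36 comparisons of a library with another group correlated best with its own number, a hint from the data. With 3 libraries a group and no depth, small differences could not be resolved.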
